A study of Homo sapiens with 6 samples.

Results

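The genes described here are NR4A1, NR4A2, NR4A3, EGR1, EGR2, EGR3, IER2, IER3, IER5 and ZFP36, 10 immediate early genes chosen by name from the 60675 genes of a count table. All 10 were abundant enough to be among the 15568 genes tested. The cells were MRC-5, a fibroblast line established from human fetal lung. In 3 libraries the cultures had been held by contact inhibition for 9 days, which makes fibroblasts quiescent, a reversible arrest outside the cell cycle, and the other 3 were control cultures, called young here. Both groups carried the same cell line and were at population doubling 32, with no other treatment or genetic change named. The control libraries are, per the labels, a reanalysis of ones made for earlier work, so growth state and library set cannot be told apart. Nothing in the labels says that the samples of a group came from separate cultures, so the p-values below measure the spread between these libraries, which may be technical.

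Immediate early genes are switched on within minutes of a mitogen, a stress or a change of adhesion, without new protein synthesis, and their mRNAs are usually short-lived. Signals reach their promoters largely through the RAS and ERK kinase cascade, which acts on serum response factor (SRF) and its ELK partners at a DNA element called the CArG box, and through CREB family factors at cyclic AMP response elements (CREs). The NR4A proteins are orphan nuclear receptors and the EGR proteins are zinc finger transcription factors. The IER genes encode small regulatory proteins, and ZFP36 encodes tristetraprolin, which binds AU-rich elements in the 3′ UTRs of short-lived mRNAs and brings about their decay. In fibroblasts these genes are best known for their brief response to serum added to resting cells; the libraries here show their standing levels.

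Sequences that match these elements are shown first, because EGR1 and EGR2 share an element and changed in opposite directions. RefSeq promoter windows on GRCh38.p14, running from 250 bases before to 50 bases after an annotated start, were found for 7 of the 10 genes, in 10 windows. The window of EGR1, chr5:138465229-138465528 on the + strand, the first window of EGR2, chr10:62816317-62816616 on the - strand, and the window of NR4A3, chr9:99821635-99821934 on the + strand, follow 5′ to 3′. Capitals mark CArG boxes and the CRE core TGACG on either strand. A core on the strand opposite to the gene appears as CGTCA in the printed strand.
EGR1: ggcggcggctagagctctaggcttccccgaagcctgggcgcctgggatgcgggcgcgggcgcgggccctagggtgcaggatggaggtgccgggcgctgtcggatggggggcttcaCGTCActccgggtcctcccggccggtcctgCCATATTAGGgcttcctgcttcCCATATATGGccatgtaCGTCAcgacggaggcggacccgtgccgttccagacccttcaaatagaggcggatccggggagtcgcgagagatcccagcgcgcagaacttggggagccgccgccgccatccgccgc
EGR2: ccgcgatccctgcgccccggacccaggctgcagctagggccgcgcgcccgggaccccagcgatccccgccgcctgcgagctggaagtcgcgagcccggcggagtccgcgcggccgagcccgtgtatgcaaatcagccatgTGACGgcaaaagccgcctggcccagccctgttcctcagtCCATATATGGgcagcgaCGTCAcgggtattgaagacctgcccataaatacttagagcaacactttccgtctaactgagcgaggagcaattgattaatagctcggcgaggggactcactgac
NR4A3: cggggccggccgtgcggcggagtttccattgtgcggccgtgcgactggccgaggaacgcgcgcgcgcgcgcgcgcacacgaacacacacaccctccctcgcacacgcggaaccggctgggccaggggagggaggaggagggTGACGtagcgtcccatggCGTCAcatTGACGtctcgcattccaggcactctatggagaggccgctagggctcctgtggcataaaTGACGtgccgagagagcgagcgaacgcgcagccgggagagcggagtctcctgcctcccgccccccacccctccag

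EGR1 held 2 CArG boxes, CCATATTAGG with its first base at -105 from the start and CCATATATGG at -83. The first window of EGR2 held 1, at -71, with the same letters as the second box of EGR1. A CArG box was present in 454 of 35114 RefSeq promoters of this length, or 1.29%. The core TGACG occurred 4 times in NR4A3, 2 times in EGR1, 2 times in the first EGR2 window and 1 time in IER2, against 24.6% of all promoters with at least 1. No window of the 7 genes held the full CRE TGACGTCA, present in 1.85% of promoters, the EGR site GCGTGGGCG (0.795%), the AP-1 site TGANTCA (7.71%), the NR4A monomer site AAAGGTCA (1.22%) or TATAAA (11.5%). The SP1 site GGGCGG, present in 45.0% of promoters, was found in NR4A1, NR4A3, EGR2, IER2 and ZFP36 windows. Motifs were searched on both strands; a match is a description of letters, and the absence of one says only that those letters are not in the window.

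The 3′ UTRs were searched for the AU-rich cores that ZFP36 binds. TATTTAT occurred in 5 of the 10 genes (NR4A2, NR4A3, IER3, IER5 and ZFP36), against 33.2% of 12818 tested protein-coding genes with a 3′ UTR. The longer TTATTTATT occurred in ZFP36 itself and in IER5, against 8.71%. The ZFP36 site and the first of 3 overlapping sites of IER5 are printed with the core in capitals, from GENCODE 29 transcripts.
ZFP36: tatgacgactTTATTTATTctaatatgat
IER5: gtgtcttcctTTATTTATTtatttattta

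Across the whole table the growth states differed widely, and each count below has to be read against that. By edgeR's quasi-likelihood test at an adjusted p under 0.05, 71.1% of the 15568 tested genes differed between the groups: 36.3% were lower and 34.8% higher in quiescent cells, and 8.33% were lower at least 2-fold. The 3 young and the 3 quiescent values did not overlap in 73.5% of tested genes. Total counts were 26860981 to 29433764 in the young and 18661639 to 22546237 in the quiescent libraries. Of 11 proliferation genes tested, 11 fell, with MKI67 at 59.4 ± 8.38 CPM in young and 5.72 ± 0.522 CPM in quiescent libraries (SD, n = 3). CPM here are read counts scaled to a common library total with edgeR's TMM factors. Among 12 fibroblast markers, COL1A1 stood at 8780 CPM in young and 3880 CPM in quiescent libraries and COL1A2 at 8458 and 3962 CPM. VIM, named after its values were seen, stood at 2863 and 2884 CPM. Not all 12 were abundant in both groups: S100A4 went from 52.0 to 3.51 CPM. Of the 12, 7 fell and 4 rose.

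Of the 10 genes, 9 fell in quiescent cells and EGR2 rose, all at an adjusted p under 0.05, and in all 10 the 2 groups of libraries did not overlap. The shares with a call (71.1%) and without overlap (73.5%) among all tested genes are high, so that alone says little; the share lower, 9 of 10 against 36.3%, and lower at least 2-fold, 3 of 10 against 8.33%, stand beside that background. The median log2 fold change of the 10 was -0.90, against 0.0018 over all tested genes. NR4A1 and NR4A2 fell more than 11-fold, EGR1 about 3-fold, ZFP36, EGR3, NR4A3 and IER3 between 1.61-fold and 1.92-fold, and IER2 and IER5 by 1.43-fold and 1.37-fold. In bulk RNA, fewer cells that express a gene and less RNA per cell cannot be told apart. CPM are relative to the other genes of a library, so a change in total RNA per cell would not show.

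**Figure D1:**
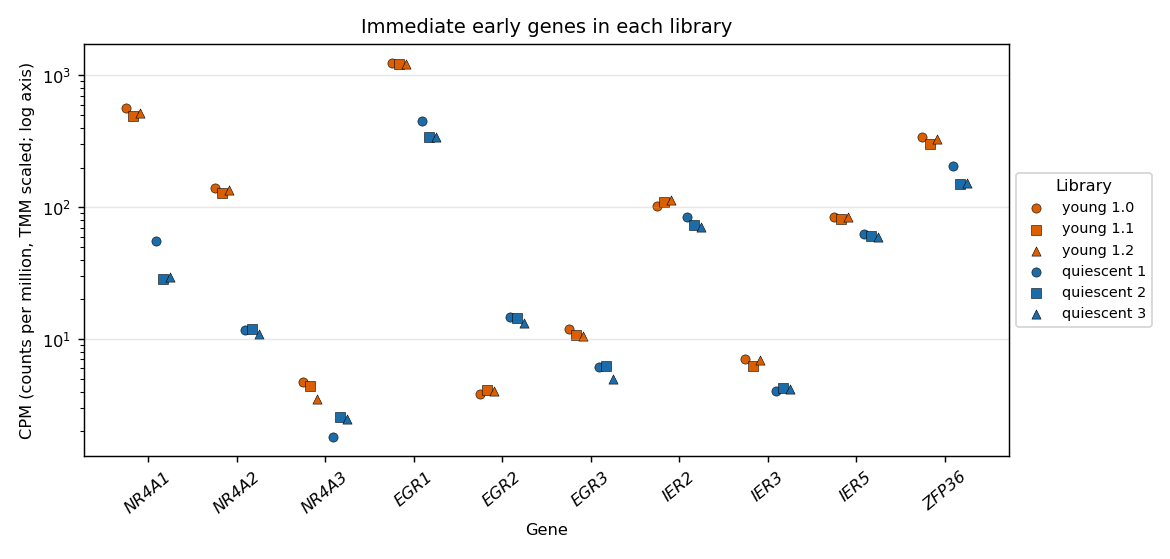
CPM (TMM scaled, log axis) of the 10 genes in each of the 6 libraries; orange marks are the 3 young and blue marks the 3 quiescent libraries. The blue marks lie below the orange ones for each gene but EGR2, and the widest gaps are those of NR4A1 and NR4A2.

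The NR4A receptors held the largest falls. NR4A1, on chr12:52022832-52059507 of GRCh38 with 8 exons, encodes a receptor induced by growth factors and by apoptotic signals. It stood at 567, 490.2 and 519.8 CPM in young libraries 1.0, 1.1 and 1.2, and at 55.3, 28.8 and 29.7 CPM in quiescent replicates 1, 2 and 3. Every quiescent value lay far below every young one, and replicate 1 was well above the other quiescent replicates. The mean went from 526 ± 38.8 to 37.9 ± 15 CPM (SD, n = 3), which leaves 7.18% of the young level, a log2 fold change of -3.80 ± 0.29 (SE; adjusted p = 2.97e-04, edgeR). Without quiescent replicate 1 the log2 fold change was -4.17 (adjusted p = 2.74e-19).

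NR4A2, on chr2:156324432-156342348 with 8 exons, encodes the receptor best known for its part in the development of dopamine neurons. Its young libraries held 140.0, 127 and 134 CPM and its quiescent libraries 11.6, 11.8 and 10.9 CPM. The quiescent replicates lay close together here, unlike those of NR4A1. The mean fell from 134 ± 6.33 to 11.4 ± 0.495 CPM (SD, n = 3), to 8.57% of the young level, with a log2 fold change of -3.54 ± 0.06 (adjusted p = 1.28e-25, edgeR).

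NR4A3, on chr9:99821855-99866891 with 9 exons, is the third receptor and was the least abundant of the family. It gave 4.72, 4.4 and 3.52 CPM in young and 1.79, 2.56 and 2.47 CPM in quiescent libraries, from 98 to 120 and from 37 to 61 reads. Replicate 1, the highest quiescent library for NR4A1, was the lowest for NR4A3. The exact Poisson 95% intervals of the quiescent libraries overlapped, at 1.262 to 2.471, 1.957 to 3.286 and 1.827 to 3.265 CPM. The log2 fold change was -0.88 ± 0.16 (adjusted p = 2.61e-05, edgeR), so quiescent cells kept 54.4% of the young level.

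To set levels of different genes side by side, CPM were divided by length in kilobases, taken over all annotated exons of a gene. For NR4A1 that length is 7295 bases, against 2678 bases in its main transcript. The shares and orders given here and below depend on this choice, and shares by main-transcript length were not worked out. On this scale the 3 NR4A genes summed to 106.5 ± 6.94 CPM per kb in young and 8.44 ± 2.04 CPM per kb in quiescent cells (SD, n = 3). NR4A1 made up 67.7 ± 0.601% of that sum in young and 60.2 ± 8.80% in quiescent cells, and its share ranged from 53.8% to 70.2% over the quiescent libraries, which spans the young values. NR4A2 made up 31.7% and 35.3%, again with overlapping libraries. The share of NR4A3 was 0.627 ± 0.0888% in young and 4.53 ± 1.64% in quiescent cells, with no overlap between the libraries.

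The EGR family split. EGR1, on chr5:138465490-138469315 with 2 exons, encodes the zinc finger factor that many mitogens induce in fibroblasts, and it was the most abundant of the 10 genes in either group. Its level was 1249, 1215 and 1221 CPM in the young libraries and 448, 339 and 344 CPM in the quiescent ones. The young libraries agreed within a few percent and quiescent replicate 1 was again above the other quiescent replicates. From 1228 ± 17.9 to 377 ± 61.6 CPM (SD, n = 3), EGR1 fell to 30.7% of its young level, with a log2 fold change of -1.70 ± 0.12 (adjusted p = 1.16e-04, edgeR).

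EGR2, on chr10:62811996-62919900 with 2 exons in its main transcript, encodes a factor best known for hindbrain patterning and for myelination by Schwann cells. It was the one gene of the 10 that rose. The young libraries held 3.82, 4.10 and 4.05 CPM, from 97 to 113 reads, and the quiescent ones 14.7, 14.3 and 13.3 CPM, from 263 to 342 reads. Each quiescent library was over 3 times every young one. The mean rose from 3.99 ± 0.154 to 14.1 ± 0.743 CPM (SD, n = 3), a 3.53-fold increase with a log2 fold change of 1.82 ± 0.09 (adjusted p = 2.76e-15, edgeR).

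EGR3, on chr8:22687659-22693302 with 2 exons, encodes a factor needed for muscle spindle formation. It measured 11.9, 10.7 and 10.5 CPM in young and 6.15, 6.29 and 4.94 CPM in quiescent libraries, from 289 to 302 and from 98 to 150 reads. Every quiescent value was below every young one, and the log2 fold change was -0.92 ± 0.10 (adjusted p = 8.34e-09, edgeR).

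Because EGR1 was so abundant, the family sum followed it: 395 ± 5.80 CPM per kb in young and 125 ± 19.8 CPM per kb in quiescent cells (SD, n = 3). EGR1 gave 99.15% of the sum in young cells and 95.95% in quiescent cells. EGR2 went from 0.274 ± 0.0145% to 3.09 ± 0.377% and EGR3 from 0.574 ± 0.0313% to 0.964 ± 0.158%. The order of the minor members turned: per kilobase EGR3 (2.27) stood above EGR2 (1.08) in young cells, and EGR2 (3.82) above EGR3 (1.19) in quiescent cells. EGR4, the remaining family member, had 0 to 3 reads in every library and was not tested.

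The IER genes fell least. IER2, on chr19:13150415-13154908 with 1 exon, encodes a small nuclear protein induced by growth factors. It lay at 102.5, 109 and 113 CPM in young and 84.2, 73.0 and 70.3 CPM in quiescent libraries, a log2 fold change of -0.51 ± 0.06 (adjusted p = 8.53e-07, edgeR). All quiescent values were lower than all young values, with replicate 1 nearest to them.

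IER3, on chr6:30743199-30744554 with 2 exons, encodes a protein that acts on cell survival under stress. The young libraries gave 7.04, 6.21 and 6.93 CPM and the quiescent ones 4.07, 4.28 and 4.18 CPM, from 168 to 193 and from 83 to 102 reads. The quiescent replicates were tightly grouped, and the log2 fold change was -0.68 ± 0.11 (adjusted p = 4.79e-06, edgeR).

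IER5, on chr1:181088712-181092899 with 1 exon, encodes a partner of the heat shock factor HSF1. Its libraries held 84.7, 81.0 and 85.0 CPM in young and 62.6, 60.9 and 59.9 CPM in quiescent cells. This was the smallest fall of the 9, to 73.2% of the young level, with a log2 fold change of -0.45 ± 0.04 (adjusted p = 7.75e-10, edgeR). Together the IER genes went from 60.2 ± 1.75 to 42.4 ± 2.66 CPM per kb (SD, n = 3), and the shares within the family stayed close: IER2 held 58.6% and 58.2%, IER5 33.2% and 34.5%, and IER3 8.25% and 7.30% in young and quiescent cells.

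ZFP36, on chr19:39406813-39409412 with 2 exons, stood at 340.2, 304 and 330.5 CPM in young and 205, 149.8 and 153 CPM in quiescent libraries. As with NR4A1 and EGR1, quiescent replicate 1 was above the other quiescent replicates. The mean fell from 325 ± 18.6 to 169.5 ± 31.2 CPM (SD, n = 3), with a log2 fold change of -0.94 ± 0.15 (adjusted p = 0.00403, edgeR), and without that library the log2 fold change was -1.10 (adjusted p = 2.63e-13).

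**Figure D2:**
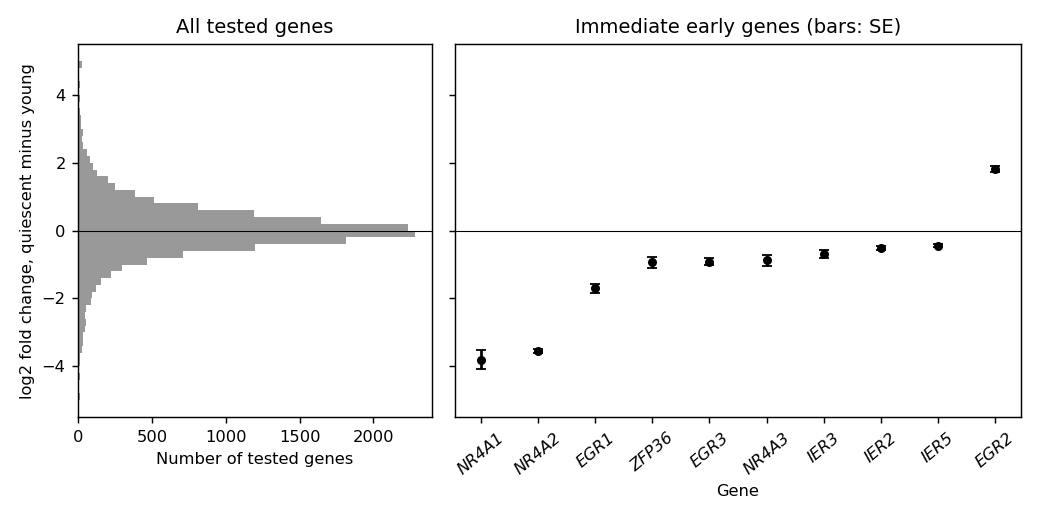
Left, the number of tested genes at each log2 fold change (quiescent minus young; values beyond 5 are drawn at 5); right, the log2 fold change of each of the 10 genes with its standard error. The 10 genes run from -3.80 for NR4A1 to 1.82 for EGR2, while the median of all tested genes is 0.0018.

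Some reads may belong to neighbours on the other strand, since the library kit does not mark strand. In GENCODE 29, genes on the opposite strand cover 30.8% of the exonic bases of IER2, 26.5% of those of IER3 (the antisense gene IER3-AS1), 10.3% of those of NR4A1 and 3.38% of those of EGR3. How much these overlaps add to the counts, or take from them if shared reads were dropped, was not tested. The values of these 4 genes carry that uncertainty.

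Per kilobase of exon, the order in young cells was EGR1 at 391 ± 5.70 CPM per kb, ZFP36 at 162 ± 9.26, NR4A1 at 72.1 ± 5.32, IER2 at 35.2 ± 1.70, NR4A2 at 33.7 ± 1.6, IER5 at 19.96 ± 0.535, IER3 at 4.96 ± 0.332, EGR3 at 2.27 ± 0.156, EGR2 at 1.08 ± 0.0417 and NR4A3 at 0.667 ± 0.0988 (SD, n = 3). Only the neighbours IER2 and NR4A2 overlapped between libraries. In quiescent cells the order was EGR1 at 120.1 ± 19.6 CPM per kb, ZFP36 at 84.4 ± 15.5, IER2 at 24.7 ± 2.4, IER5 at 14.6 ± 0.326, NR4A1 at 5.20 ± 2.06, EGR2 at 3.82 ± 0.202, IER3 at 3.08 ± 0.0768, NR4A2 at 2.89 ± 0.125, EGR3 at 1.19 ± 0.153 and NR4A3 at 0.360 ± 0.0663. Here the neighbours NR4A1 and EGR2 overlapped. On this scale NR4A1 and NR4A2 dropped below IER5 between the groups, and EGR2 climbed above IER3 and NR4A2. EGR1 and ZFP36 kept the top places and NR4A3 the last place. These places are by the length over all annotated exons, which for NR4A1 is 7295 bases, against 2678 in its main transcript. The main transcripts of ZFP36 and IER5 have 1786 and 4188 bases. By main-transcript length the young mean of NR4A1 would stand above that of ZFP36. In quiescent cells NR4A1 would then stand above IER5 in replicate 1 and below it in the other replicates.

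The quiescent libraries differed among themselves, most of all in NR4A1. Quiescent replicate 1 stood at 1.89 times the mean of the other quiescent replicates for NR4A1, 1.36 times for ZFP36, 1.31 times for EGR1 and 1.18 times for IER2. The ratio was 1.02 for NR4A2, 1.04 for IER5, 1.06 for EGR2, 1.1 for EGR3, 0.962 for IER3 and 0.713 for NR4A3. The pattern was therefore uneven within a family: NR4A1 and NR4A2, with nearly equal falls between the groups, differed in it. For NR4A1 the exact Poisson 95% intervals of the 3 quiescent libraries were 52.1 to 58.6, 26.7 to 31.0 and 27.3 to 32.2 CPM. Replicate 1 thus lay outside the counting error of the others. For NR4A3 the intervals overlapped. All these intervals cover counting error only.

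**Figure D3:**
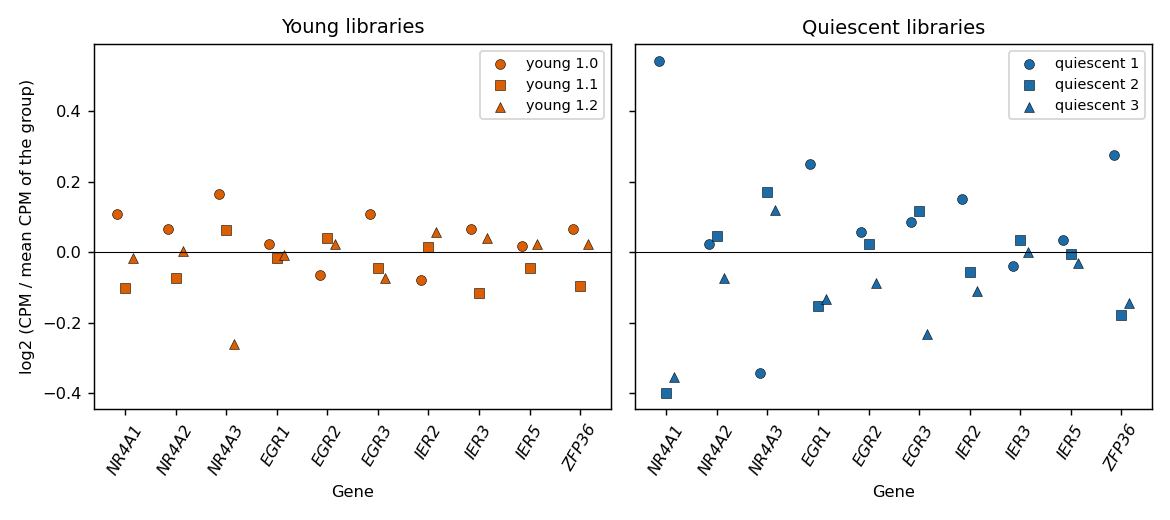
Each library's log2 ratio to the mean CPM of its own group, for the 10 genes, with young libraries left and quiescent libraries right. NR4A1, EGR1, IER2 and ZFP36 stand highest in quiescent replicate 1 (circles), and NR4A3 is lowest there, with overlapping counting intervals.

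Other immediate early genes shared this. Among 6668 genes with a mean of at least 25 CPM in quiescent cells, a limit chosen after the values were seen, the widest log2 ranges between quiescent libraries were those of FOSB (1.17), NR4A1 (0.94), ZFP36 (0.46), FOS (0.43) and EGR1 (0.40), while the median of these genes was 0.0717. FOSB, an AP-1 subunit, stood at 140.5 CPM in quiescent replicate 1 and at 62.4 CPM in each of the others. FOS, its close relative, stood at 481 CPM against 357 CPM in each of the others. Replicate 1 was the highest quiescent library for 6 of the 10 genes and for 32 of 43 other immediate early genes (74.4%), against 33.4% of all tested genes. In the other lists it was highest for 6 of 13 relatives and partners, 8 of 19 ERK cascade genes, 8 of 18 SRF and CREB factors, 7 of 20 mRNAs bound by ZFP36, 1 of 12 heat shock genes, 6 of 11 proliferation genes and 6 of 12 fibroblast markers, and for 3 of 4 epithelial, 3 of 3 endothelial and 0 of 1 leukocyte markers. The cause was not tested. In the young libraries, library 1.0 was highest for 7 of the 10 genes, against 28.9% of all tested genes.

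**Figure D4:**
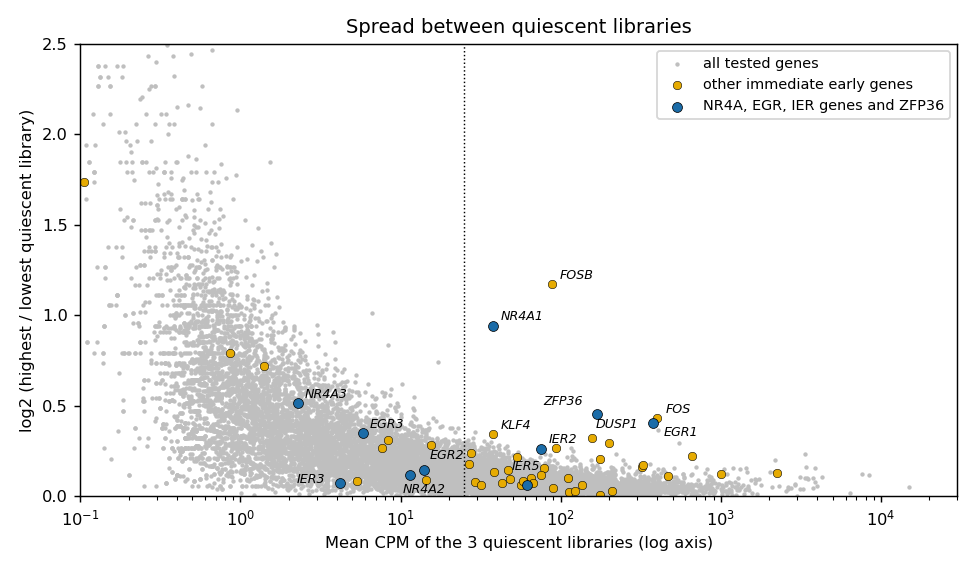
Log2 ratio of the highest to the lowest quiescent library against the mean quiescent CPM (log axis) for all tested genes in grey, other immediate early genes in yellow and the 10 genes in blue; the dotted line is at 25 CPM. Right of that line FOSB, NR4A1, ZFP36, FOS and EGR1 have the 5 widest ranges; a few grey genes beyond the plotted area, at low CPM, are not drawn.

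The other immediate early genes mostly fell as well. Of 43 tested from a list of 44, 33 fell, 8 rose and 2 did not pass, against 36.3% lower and 34.8% higher over all tested genes. Their median log2 fold change was -1.07. Without quiescent replicate 1 the counts were again 33 lower and 8 higher. Scaled by library size alone they were 33 and 10, against 3889 and 7568 of all 15568 tested genes. The largest falls were in the ERK phosphatase DUSP5 (244 ± 13.3 to 38.3 ± 1.82 CPM, log2 -2.67), the stress kinase phosphatase DUSP1 (875 ± 23.3 to 157 ± 20.5 CPM, -2.48) and the stress factor ATF3 (149 ± 3.33 to 26.7 ± 1.65 CPM, -2.47). The secreted neuropeptide precursor VGF and the nuclear factor CSRNP1 fell too, with log2 fold changes of -2.37 and -2.05. For FOSB the log2 fold change was -2.07 ± 0.38 (edgeR, adjusted p = 0.00783), with the wide quiescent spread given above. Against these, the antiproliferative gene BTG2 rose by 0.93 (49.2 ± 0.309 to 93.6 ± 9.72 CPM) and the AP-1 subunit JUN by 0.63 (207 ± 3.27 to 321 ± 18.2 CPM) on the log2 scale. EGR2 was thus not alone in rising among genes of this class.

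Fewer of the relatives and partners of the 10 genes fell. Of 13 tested from 16, 7 rose, 2 fell and 4 did not pass, against 34.8% higher and 36.3% lower over all tested genes. Their median log2 fold change was 0.13. Scaled by library size alone 11 rose, on a scale where 7568 of all 15568 tested genes rose and their median was 0.18. The 2 that fell, CNOT1 and CNOT7 of the deadenylase complex that ZFP36 recruits (log2 -0.29 and -0.14), then lost their calls, and CNOT7 changed sign. IER5L, the paralogue of IER5, rose 3.48-fold, from 7.0, 6.54 and 5.67 CPM in young to 24.4, 21.9 and 20.5 CPM in quiescent libraries (log2 1.8 ± 0.09, adjusted p = 7.83e-16, edgeR), while IER5 fell. NR2F1, an orphan receptor of another family, rose from 72.9 ± 2.98 to 146.5 ± 2.60 CPM (log2 1.01). NAB1 and NAB2, corepressors that bind EGR proteins, rose by 0.55 and 0.87 on the log2 scale, to 52.4 and 101.3 CPM. The ZFP36 paralogues ZFP36L1 and ZFP36L2 rose by 0.50 and 0.29, to 402 and 165 CPM, and ended near or above ZFP36 in CPM, a scale that is not corrected for length. RXRA and RXRB, partner receptors of NR4A proteins, did not pass the test at 74.7 to 78.7 CPM and 9.81 to 10.2 CPM. All of these but IER5L and NR2F1 are named outside the rule for named genes, after their values were seen.

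**Figure D5:**
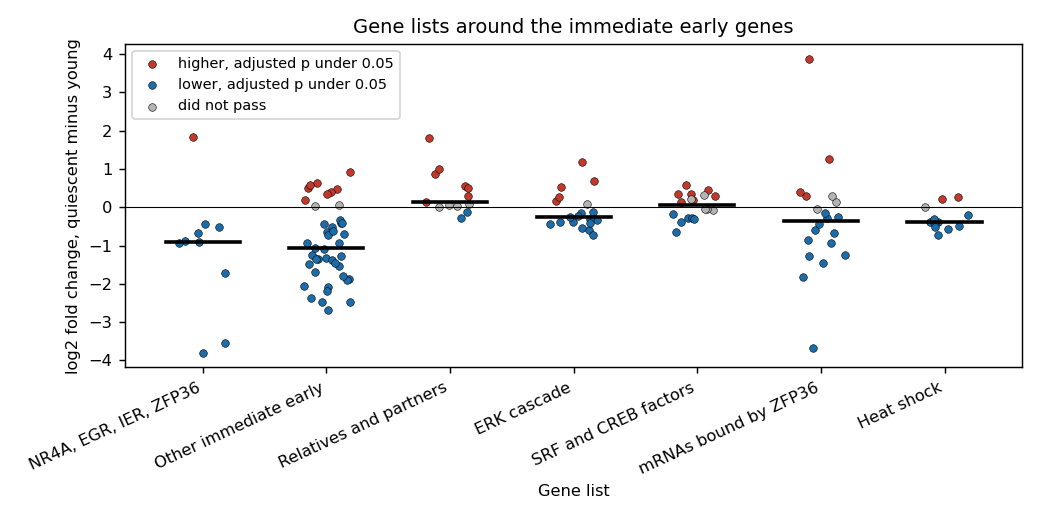
Log2 fold change (quiescent minus young) of each tested gene in 7 lists, with red for higher, blue for lower and grey for genes that did not pass, and a black bar at each list's median. The 10 genes and the other immediate early genes lie mostly below 0 (medians -0.90 and -1.07), and their relatives and partners mostly above it.

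Genes of the upstream machinery had smaller changes. Of 19 genes of the ERK cascade, 13 fell, 5 rose and 1 did not pass, against 36.3% lower and 34.8% higher over all tested genes. Their median log2 fold change was -0.26. By library size alone 7 fell and 6 rose, against 3889 lower and 7568 higher of all 15568 tested genes. MAP2K1, the kinase that activates ERK, fell from 59.0 ± 1.70 to 36.0 ± 0.581 CPM (log2 -0.72) and the GTPase NRAS from 102 ± 1.95 to 67.3 ± 0.621 CPM (log2 -0.60). The downstream kinases moved both ways: RPS6KA5 rose by 1.17 and RPS6KA2 by 0.69, and RPS6KA1 fell by 0.54 on the log2 scale, a call lost by library size alone and without quiescent replicate 1. The scaffold KSR1 rose by 0.52.

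Among 18 SRF, CREB and related factors, 7 rose, 6 fell and 5 did not pass (median 0.05). These shares were near those of all tested genes, 34.8% higher and 36.3% lower. By library size alone 11 rose and 3 fell, against 7568 higher and 3889 lower of all 15568 tested genes. SRF itself, which is also on the list of other immediate early genes, fell from 102 ± 2.14 to 65.6 ± 2.26 CPM (log2 -0.64 ± 0.04, adjusted p = 7.49e-13, edgeR). Its partner ELK3 fell by 0.38 on the log2 scale, while ELK4 rose by 0.34 and the related factor MEF2A, which binds a different AT-rich site, by 0.45. The CREB coactivators CRTC1 and CRTC3 rose by 0.59 and 0.33.

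Textbook mRNAs bound by ZFP36 did not move as one. The list holds IER3 and shares FOS, MYC, PTGS2 and LIF with the other immediate early genes. Of 20 tested from 23, 13 fell, 4 rose and 3 did not pass (median -0.37), against 36.3% lower and 34.8% higher over all tested genes. By library size alone 10 fell and 6 rose, against 3889 lower and 7568 higher of all 15568 tested genes. The chemokine CXCL1 rose from 0.377 ± 0.141 to 5.58 ± 0.654 CPM (log2 3.87) and the apoptosis inhibitor BIRC3 from 4.43 ± 0.455 to 10.7 ± 1.52 CPM (log2 1.27). The young libraries held only 6 to 12 reads of CXCL1. IL1B, below the mean CPM of 1 that naming required, had a log2 fold change of -3.68. It had 17 to 35 reads in young and 1 to 3 in quiescent libraries. PLAUR, the urokinase receptor, fell from 83.0 ± 1.64 to 23.3 ± 0.265 CPM (log2 -1.83), and PTGS2, LIF and MYC fell by 1.44, 1.28 and 1.26 on the log2 scale. TNF, CSF2 and IL10 had 0 to 7 reads in every library and were not tested.

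Heat shock genes, some of which cells raise under stress, were mostly lower as well. Of 12 tested, 9 fell, 2 rose and 1 did not pass (median -0.38), against 36.3% lower and 34.8% higher over all tested genes. The 1 that did not pass, DNAJB1, named after its values were seen, stood at 129.2 CPM in young and 128.9 CPM in quiescent libraries. By library size alone 7 fell and 3 rose, against 3889 lower and 7568 higher of all 15568 tested genes. HSPB1 fell from 304 ± 15.5 to 184 ± 7.78 CPM (log2 -0.73) and BAG3 from 112 ± 1.37 to 75.0 ± 4.45 CPM (log2 -0.58). HSPA4L and HSPH1 rose by 0.28 and 0.22 on the log2 scale. The strongly inducible pair HSPA1A and HSPA1B, near-identical copies among which reads may be lost, had 0 to 1 reads in every library. The part of this difference in the levels of the 10 genes was not tested.

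Among markers of other cell types, few were detected. The 4 tested of 10 epithelial markers summed to 55.7 to 57.2 CPM in young and 28.1 to 29.8 CPM in quiescent libraries. All 4 fell, led by KRT19 (12.3 to 1.04 CPM). KRT5, SFTPC and SCGB1A1 had 0 reads. EPCAM, not tested, had 5, 14 and 25 reads in young and 2, 5 and 1 in quiescent libraries. The 3 tested of 8 endothelial markers summed to 75.6 to 86.4 and 94.7 to 96.9 CPM, and rose. TEK made up most of that sum and rose 1.13-fold, while KDR rose from 0.394 to 3.10 CPM and VWF from 0.803 to 3.27 CPM. Of the untested, PECAM1 and CDH5 had 0 to 2 reads, EMCN 0 to 1 and CLDN5 1 to 5. TIE1, also untested, went the other way, with 12, 21 and 8 reads in young and 1, 0 and 1 in quiescent libraries. The 1 tested of 11 leukocyte markers, CD14, rose from 1.03 to 2.58 CPM. PTPRC had 0 to 1 reads, and CD3E, MS4A1 and FCGR3A had 0. CD79A, not tested, had 8, 5 and 15 reads in young and 4, 3 and 3 in quiescent libraries. CSF1R, not tested either, had 4 to 9 reads. Of 12 fibroblast markers, 7 fell, 4 rose and 1 did not pass, with S100A4 falling 14.8-fold and THY1 3.76-fold and LUM rising 2.34-fold. The part of these in the results was not tested.

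The genes nearest to NR4A1 in profile, by Euclidean distance of mean-centred log2 CPM over the 6 libraries, were WNT16 (0.469), LCTL (0.525), MYBL2 (0.660), UBE2C (0.669) and KRT19 (0.685). All 5 were far less abundant than NR4A1, with WNT16 at 9.72 to 11.3 CPM in young and 0.587 to 0.969 CPM in quiescent libraries. Nearest to the mean profile of the 10 genes were H2AFX (0.0851), CARD10 (0.0875), SLIT2 (0.106), PAX8-AS1 (0.139) and PYCARD (0.145).

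Many of the 10 genes have few exons and a short span, which was not used to choose them. Main transcripts had at most 2 exons in 7 of 10, against 6.92% of 12927 tested protein-coding genes, and 6 of 10 spanned under 10000 bases, against 18.2%. Of 895 tested protein-coding genes with at most 2 exons, 31.2% fell and 42.0% rose, with a median log2 fold change of 0.11. Over all tested genes 36.3% fell and 34.8% rose. The part of gene structure in the changes of the 10 genes was not tested. NR4A1, NR4A2 and NR4A3 had 8, 8 and 9 exons. EGR2 had the longest span, at 107905 bases over all its annotated transcripts, though its main transcript has 2968 bases in 2 exons.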

How the data were processed

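RNA-seq was measured in 3 quiescent and 3 young MRC-5 libraries. The authors deposited raw read counts per gene, one column per library. Per the submitters' processing notes, the build was GRCh38 and the tools were featureCounts 1.4.6-p4, STAR 2.4.1d and bcl2fastq 1.8.4; libraries were made with a TruSeq kit that does not mark strand, per the labels' protocols. Not given in the sources used here are the annotation release, the strand setting and the handling of reads with several matches. The deposited RPKM table was examined but not tested, because its quiescent columns are not scaled alike from gene to gene (values under the other observations). Young columns carry a name shared by the group only and are called 1.0, 1.1 and 1.2; the numbers pair nothing.

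The main test was edgeR 4.0.16 (R 4.3.3) on the counts: filterByExpr, TMM factors, robust quasi-likelihood fits with group as the only term, and Benjamini-Hochberg adjustment over the 15568 genes kept, at 0.05, two-sided. The biological coefficient of variation was 3.84%. Each SE of a log2 fold change was worked back from the test, as the absolute change divided by the square root of its F statistic. The test was tested on simulated data first. Total counts of 18661639 to 29433764 per library set the precision, and count intervals are exact Poisson intervals at 95%, covering counting error only. No 2 libraries agreed within sampling noise (chi-square per degree of freedom 1.48 to 8.83 within groups). Symbols, lengths and 1-based coordinates are from GENCODE 29 on GRCh38, which lacked 80 of the tested genes; promoters are from RefSeq. The genes of the older names MKL1 and MKL2 were matched through RefSeq synonyms.

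The 10 genes and all gene lists were chosen with earlier results of these data known. Named are all 10 genes, relatives called at least 2-fold, for each other list up to 6 of the largest called changes at a mean CPM of at least 1 with the 2 largest in the minority direction, and the 5 nearest profiles. Genes given for spread, undetected and untested genes, VIM, IL1B, DNAJB1 and the relatives other than IER5L and NR2F1 were named after their values were seen. The alternatives were DESeq2 1.42.0 size factors and its Wald test, library size alone, upper-quartile factors, other filters, non-robust fits, limma 3.58.1 (voom, and recomputed RPKM) and each library left out.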

Additional observations from a re-analysis of the deposited data

How the results depend on the processing

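All 10 genes kept their direction and stayed under an adjusted p of 0.05 in all 16 alternatives, and the counts of 9 lower and 1 higher did not change. The log2 fold change ran over these from -4.17 to -3.44 for NR4A1, -3.58 to -3.01 for NR4A2, -0.99 to -0.23 for NR4A3, -1.84 to -1.52 for EGR1, 1.33 to 2.00 for EGR2, -0.98 to -0.47 for EGR3, -0.59 to -0.33 for IER2, -0.74 to -0.40 for IER3, -0.47 to -0.26 for IER5 and -1.10 to -0.76 for ZFP36. The highest adjusted p was 0.0214, for ZFP36 without young library 1.2. Values nearest 0 for low genes came from log2(RPKM + 1), a scale that shrinks the change of low genes by construction; the 2 recomputed RPKM alternatives were chosen after seeing the data. With each library left out in turn, NR4A1 ran from -4.17 to -3.62 and the number of genes called from 10439 to 11034. Scaling by library size alone called 3889 genes lower and 7568 higher, 33.9% lower against 51.1% in the main test, and moved the median of all genes to 0.18; CNOT7, a relative called lower, then stood at 0.04. The planned tests on the deposited RPKM were not run, because those values are not comparable between libraries. No paired analysis was possible because the young columns carry no sample number of the labels. Depth limits mainly NR4A3, with 37 to 120 reads per library, and EGR4, with 0 to 3.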

Other observations

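The deposited RPKM table cannot be used to compare these genes between libraries. Over 6414 genes with more than 500 reads in every library, RPKM divided by counts in the young columns gave 1 factor per gene, the same in all 3 libraries within 0.002 on the log2 scale, so library size was not taken into account. In each quiescent column the factor relative to young library 1.0 ran from 0.771 to 2.23 and repeated every 210 rows of the table, within the same tolerance in 6414 of 6414 genes. For ZFP36 the factors were 1.27, 1.36 and 2.23 in quiescent replicates 1, 2 and 3, and the deposited RPKM of 64.4, 58.0 and 81.1 puts replicate 3 highest, where the counts put replicate 1 highest. For NR4A3 the deposited quiescent RPKM were 0.191, 0.518 and 0.344, and the log2 ratio of the deposited means was -0.29, against -0.88 from the counts. For IER2 that ratio was -0.27, against -0.51 from the counts, and for IER5 it went the other way, at -0.87 against -0.45.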
